A study of Mus musculus with 16 samples.

Results

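The estrogen target genes, Greb1, Tff1, Pgr and Sfrp5, were followed across 16 one-colour arrays of HL-1 cells, a female mouse atrial cardiomyocyte line. They were 4 of the 19096 genes that could be named on the array, and 3 of them (Greb1, Tff1 and Sfrp5) were among the 17771 genes bright enough to test. The genes were chosen by their measured levels on these same arrays, namely the E2 differences and the step in Greb1 among the vehicle arrays. Their differences between E2 and vehicle, and the step in Greb1 between vehicle arrays, are therefore given as descriptions without a test. Cells received vehicle (PBS), 100 nM dexamethasone (Dex, a synthetic glucocorticoid), 10 nM estradiol (E2), or both agents at those doses (Dex+E2), each for 6 h. Each label had 4 arrays, and the series describes 4 independent experiments. All groups were the same line, grown in Claycomb medium. It is a single immortalised line from a mouse atrial tumour, which limits it as a model of heart muscle.

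Estradiol binds estrogen receptors, which attach to DNA at estrogen response elements or through partner factors and recruit coactivators. Greb1 encodes a chromatin-bound partner of estrogen receptor alpha, and Tff1 a secreted trefoil peptide of mucosal surfaces. Both are textbook estrogen-induced genes of breast cancer cells. Pgr encodes the progesterone receptor, itself a standard estrogen target, and Sfrp5 a secreted antagonist of Wnt ligands.

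The start regions of these genes are shown because the canonical element, GGTCA and TGACC spaced by 3 bases, is the sequence through which the receptor binds DNA directly. RefSeq start sites of build GRCm38.p6 gave 4 windows for 3 of the 4 genes, each reaching from 250 bases before to 50 bases after the start. Tff1 was not in the promoter table. The windows below are written 5′ to 3′ on the gene's strand, and capitals mark a single arm of the element, GGTCA, found on either strand (TGACC on the other). The first Greb1 start lies at chr12:16800837-16801136 on the minus strand, the second at chr12:16757190-16757489 on the minus strand, and the Sfrp5 start at chr19:42202203-42202502 on the minus strand.
Greb1 start 1: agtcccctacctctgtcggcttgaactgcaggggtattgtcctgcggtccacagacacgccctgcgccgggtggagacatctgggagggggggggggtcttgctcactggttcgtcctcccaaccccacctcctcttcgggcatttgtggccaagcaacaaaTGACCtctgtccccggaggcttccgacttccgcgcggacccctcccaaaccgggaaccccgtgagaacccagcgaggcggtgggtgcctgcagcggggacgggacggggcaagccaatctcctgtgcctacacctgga
Greb1 start 2: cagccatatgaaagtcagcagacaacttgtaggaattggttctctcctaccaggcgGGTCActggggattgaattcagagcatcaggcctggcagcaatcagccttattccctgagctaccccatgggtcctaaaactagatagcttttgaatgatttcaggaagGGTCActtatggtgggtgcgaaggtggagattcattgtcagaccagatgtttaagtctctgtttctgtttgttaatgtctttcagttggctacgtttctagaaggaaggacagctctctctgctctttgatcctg
Sfrp5 start: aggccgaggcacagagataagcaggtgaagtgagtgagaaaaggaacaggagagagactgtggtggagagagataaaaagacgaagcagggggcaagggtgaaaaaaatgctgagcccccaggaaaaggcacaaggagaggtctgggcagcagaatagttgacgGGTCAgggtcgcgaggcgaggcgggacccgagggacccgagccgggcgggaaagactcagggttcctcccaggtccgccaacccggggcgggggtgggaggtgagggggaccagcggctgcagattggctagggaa
The full element was found in 0 of the 4 windows, and in 0.0700% of all 32851 RefSeq windows of the same length. A single arm occurred once at the first Greb1 start, 2 times at the second and once at the Sfrp5 start, against 40.5% of all windows with at least 1 and 10.8% with 2 or more. The Pgr window, chr9:8899583-8899882 on the plus strand, held 0 arms. The glucocorticoid-type palindrome ACANNNTGT, sought on both strands, matched once, at the second Greb1 start, and in 6.85% of all windows. A match here describes letters in a window and does not mark a site that a receptor used.

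The arrays differed in ways that bear on every value below. Levels are log2 processed signals from which the array's own 75th percentile was subtracted, so 0 is a bright probe and a difference of 1 is a doubling. That percentile lay between 402 and 557 intensity units, and between 58.6% and 65.6% of probes per array were well above background. Of 8 atrial cardiomyocyte markers, 7 were well above background on all 16 arrays and the eighth, Tnni3, on 15. So were 3 of 3 smooth muscle markers, with Acta2 at a median of 8.12, 3 of 5 fibroblast markers, with Col1a1 at 5.01, and 1 each of 4 endothelial, 3 leukocyte and 4 epithelial markers. Markers of other muscle and of stromal cells were thus detected beside the atrial ones, whose medians ran from 0.64 (Nppa) to 7.88 (Myl7). Per1, a clock gene that glucocorticoids induce, did not follow the Dex labels. It was high (1.75 to 1.99) on Dex 1, 2 and 4, on Dex+E2 1, 2 and 4, on Vehicle 4 and on E2 4. It was low (-1.29 to -0.75) on the other 8 arrays, Dex 3 and Dex+E2 3 among them, so on 4 arrays the Per1 level went against the label. The groups below are therefore the arrays as labelled. The arrays lay on 4 slides of 4. Slide 1 held Vehicle 1 and 2 with Dex 1 and 2, slide 2 held Vehicle 3 and 4 with E2 1 and 2, slide 3 held Dex 3 and 4 with Dex+E2 1 and 2, and slide 4 held E2 3 and 4 with Dex+E2 3 and 4.

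Sfrp5 was highest on the 4 arrays labelled E2. On the E2 arrays it stood at -3.09, -3.10, -3.09 and -3.20 (arrays 1 to 4). On the vehicle arrays it stood at -3.39, -3.91, -3.79 and -3.81. All 4 E2 arrays lay above all 4 vehicle arrays. On the Dex arrays Sfrp5 was -3.80, -3.46, -3.65 and -3.70, and on the Dex+E2 arrays -3.56, -3.58, -3.84 and -3.59. Neither group reached the E2 arrays, and the lowest E2 array exceeded the highest of the other 12, Vehicle 1, by 0.19. Genes whose 4 E2 arrays all lay above the other 12 numbered 48 of 17529, or 0.274%, and Sfrp5 had the widest margin among them. Sfrp5 was chosen with its E2 levels known, so this share and margin are descriptions and no test. Its probe was well above background on all 16 arrays, with signals from 29.1 to 58.7 units.

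Group means for Sfrp5 were -3.12 ± 0.05 (SD, n = 4) with E2, -3.72 ± 0.23 with vehicle, -3.65 ± 0.14 with Dex and -3.64 ± 0.13 with Dex+E2. In the limma fit over all arrays, E2 exceeded vehicle by 0.60 ± 0.12 (log2 difference ± SE), a 1.52-fold higher level. Dex+E2 lay below E2, with a difference of -0.52 ± 0.12. Those 2 groups did not overlap, as for 2.17% of all genes in that direction. The 2 comparisons that the choice of genes did not use were close to 0. Dex and vehicle overlapped in all 3 tested genes, as did Dex+E2 and Dex. The background of non-overlap was 1.2% higher and 3.41% lower for Dex against vehicle, and 2.28% higher for Dex+E2 against Dex. In Sfrp5, Dex differed from vehicle by 0.07 ± 0.12 (limma adjusted p = 0.857), and Dex+E2 differed from Dex by 0.01 ± 0.12 (limma adjusted p = 0.9999). The interaction, the E2 difference in the presence of Dex minus that in its absence, was -0.59 ± 0.18 and belongs to the description.

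Tff1 had the same order of groups at a far dimmer probe. On the vehicle arrays it was -5.96, -5.84, -5.96 and -5.81, a spread of 0.08 (SD, n = 4). On the E2 arrays it was -4.96, -5.05, -4.92 and -4.51. Every E2 array was above every vehicle array, and the means differed by 1.03 ± 0.20 (SE), which is 2.04-fold. Tff1 and Sfrp5 were thus 2 of the 3 tested genes with no overlap between E2 and vehicle, against 1.53% of all genes in that direction, a contrast that the choice of genes had used.

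With Dex, Tff1 split by array number and slide. Dex 1 and 2 were at -5.19 and -5.33, Dex 3 and 4 at -5.85 and -5.92, and the Dex+E2 arrays at -5.09, -5.18, -5.61 and -5.54. Dex 3 and 4 were within the vehicle range and, like Vehicle 1, were not well above background, so the probe was well above background on 13 of 16 arrays, with 3 of 4 vehicle and 2 of 4 Dex arrays among them. Dex+E2 1 came within 0.04 of the lowest E2 array. Dex against vehicle gave 0.32 ± 0.20 and Dex+E2 against Dex 0.22 ± 0.20. Tff1 was bright enough to test only through the E2 and Dex+E2 groups, with 4 of 4 arrays well above background in each. All its differences are therefore given as descriptions. Dex+E2 was above vehicle on all arrays (difference 0.54 ± 0.20) and below E2 on all arrays (-0.50 ± 0.20). Non-overlap of that kind was seen for 0.73% and 2.17% of all genes respectively.

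The Tff1 signal itself was small. It ran from 7.34 to 18.3 units, with a scanner error of 1.62 to 2.58, and spot medians of 30 to 38 sat over local backgrounds of 19.5 to 25. To see whether dim probes in general differed on the E2 arrays, Tff1 was set against the 869 genes nearest to it in mean level. Their median was -5.45 to -5.13 on vehicle arrays and -5.42 to -5.24 on E2 arrays, which overlapped. On Dex arrays it was -5.62 to -5.51, below every vehicle array, and on Dex+E2 arrays -5.53 to -5.22. Relative to those genes, Tff1 was -0.56 ± 0.18 (SD, n = 4) with vehicle, -0.01 ± 0.36 with Dex, 0.46 ± 0.22 with E2 and 0.06 ± 0.13 with Dex+E2. Sfrp5, set against its own 763 neighbours in level, was -0.24 ± 0.27, -0.02 ± 0.12, 0.38 ± 0.08 and -0.08 ± 0.12 in the same order. The median of those neighbours was also lower on Dex arrays (-3.68 to -3.59) than on vehicle arrays (-3.54 to -3.36). Dex differences from vehicle in these 2 genes thus depend on whether neighbours in level are subtracted.

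The position of Tff1 above all other arrays depended on the scaling. With quantile normalization, or with the deposited log2 table, Dex 1 exceeded the lowest E2 array of Tff1. Sfrp5 stayed above all 12, as did 0.143% and 0.154% of genes, again on the E2 levels used in choosing it. Under normexp background correction, Dex+E2 4 exceeded the lowest E2 array for both genes. Under all 3 of these, both genes remained above every vehicle array with E2. Under normexp the lowest E2 array of Tff1 was at -1.11 and the highest vehicle array at -1.15. There, 9920 of 17529 genes had an unadjusted limma p under 0.05 for E2 against vehicle, beside 682 of 17771 in the main fit. The share of all genes above every vehicle array under normexp was not counted.

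**Figure D1:**
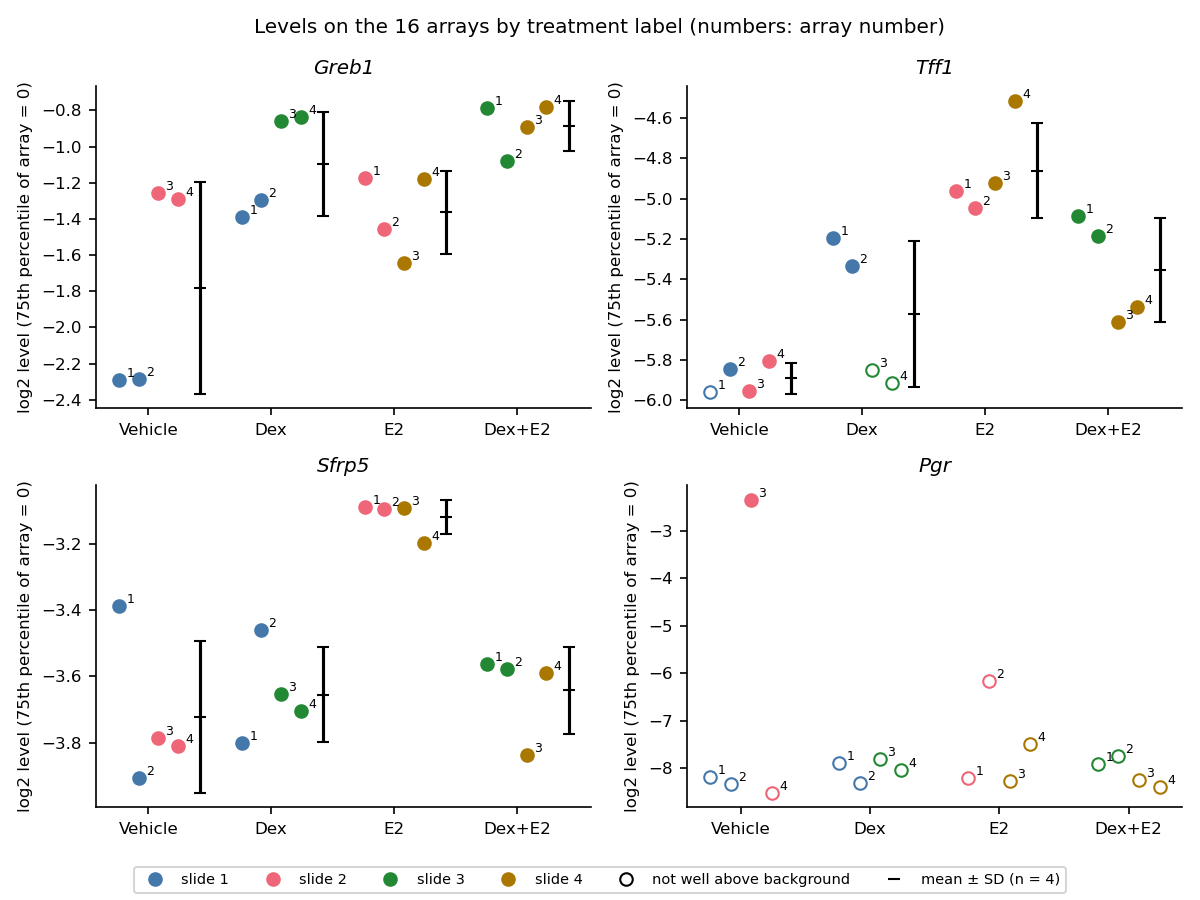
Log2 levels of Greb1, Tff1, Sfrp5 and Pgr (y axis, 0 is the 75th percentile of the array) by treatment label, one numbered point per array coloured by slide, open where not well above background, with mean and SD (n = 4) in black for all but Pgr. For Tff1 and Sfrp5 the 4 E2 arrays sit above the vehicle arrays, while the vehicle arrays of Greb1 form a low pair at -2.29 and a high pair at -1.26 and -1.29.

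Greb1 did not follow the E2 label. Vehicle 1 and Vehicle 2 were at -2.29 each, and Vehicle 3 and Vehicle 4 at -1.26 and -1.29. The E2 arrays were at -1.17, -1.45, -1.64 and -1.18, so they overlapped the higher vehicle pair. Dex arrays were at -1.39, -1.30, -0.86 and -0.84, and Dex+E2 arrays at -0.79, -1.08, -0.89 and -0.78. The Greb1 probe was well above background on all 16 arrays, with signals from 89.5 to 316 units.

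The vehicle pairs of Greb1 differed by 1.01, which is 2.02-fold, between arrays carrying the same label on different slides. An increase at least that large from the slide 1 pair to the slide 2 pair was found for 347 of 17529 genes (1.98%), and a step of that size in either direction for 2.86%. Vehicle 1 and 2 were the lowest of all 16 arrays in Greb1, as they were for 2.93% of genes. The group means were -1.78 ± 0.59 (SD, n = 4) with vehicle, -1.09 ± 0.29 with Dex, -1.36 ± 0.23 with E2 and -0.88 ± 0.14 with Dex+E2. E2 minus vehicle was 0.42 ± 0.23 (SE) over all arrays and -0.09 ± 0.17 when Vehicle 1 and 2 were left out, a setting added after seeing the data. Leaving them out moved the Dex difference from vehicle from 0.69 ± 0.23 to 0.18 ± 0.17, and the Dex+E2 difference from vehicle from 0.90 ± 0.23 to 0.39 ± 0.17. Leaving out those arrays changed the E2 difference of Tff1 only from 1.03 to 1.02, and that of Sfrp5 from 0.60 to 0.68.

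Among the other comparisons, Dex+E2 was above E2 in Greb1 on all arrays (difference 0.48 ± 0.23), as for 0.742% of genes. The Dex+E2 and Dex arrays overlapped, with a difference of 0.21 ± 0.23. The order of the group means from lowest to highest was vehicle, E2, Dex and Dex+E2. Neighbours in that order, vehicle with E2, E2 with Dex and Dex with Dex+E2, overlapped.

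Greb1l, the paralog of Greb1, was well above background on all 16 arrays. Its means in the 4 groups (vehicle, Dex, E2, both) were -1.01 ± 0.11, -1.03 ± 0.05, -1.03 ± 0.17 and -0.76 ± 0.13 (SD, n = 4). Its vehicle arrays spread by 0.11 (SD), against 0.59 for Greb1. Dex+E2 minus Dex was 0.27 ± 0.09 (limma adjusted p = 0.9999).

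Pgr was at or below detection on 15 of 16 arrays, from -8.52 to -6.16, with signals of 1.33 to 6.25 units. Vehicle 3 alone was well above background, at -2.34, from a signal of 102 ± 10.4 units (scanner error). That spot had a median of 113 over a local background of 24.5 and carried no flag. The other vehicle arrays were at -8.19, -8.34 and -8.52, and the E2 arrays at -8.20, -6.16, -8.27 and -7.50. No array labelled Dex, E2 or Dex+E2 had Pgr well above background, and no group mean is given for it. Probes well above background on a single array numbered 3009, of which 335 were on Vehicle 3, and 9 of these were at or above the Pgr level there. Since the array has 1 probe and 1 spot for Pgr, no second measurement of that reading was available.

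Labels that shared a slide can be compared within it. On slide 2, which held Vehicle 3 and 4 with E2 1 and 2, Greb1 differed by -0.04 and the arrays overlapped, while Tff1 was 0.88 higher with E2 and Sfrp5 0.71 higher. On slide 3, Dex+E2 exceeded Dex by 0.75 in Tff1 and by 0.11 in Sfrp5, and Greb1 overlapped at -0.09. On slide 4, Dex+E2 lay below E2 by -0.86 in Tff1 and -0.57 in Sfrp5, and above it by 0.58 in Greb1. On slide 1, Dex exceeded vehicle by 0.95 in Greb1 and 0.64 in Tff1, with Sfrp5 at 0.02 and overlapping.

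Labels did not overlap on any of the 4 slides for Tff1, on 3 for Sfrp5 and on 2 for Greb1. Non-overlap on all 4 slides was found for 607 of 17529 genes (3.46%), on at least 3 slides for 23.2% and on at least 2 for 62.2%, so the counts for Sfrp5 and Greb1 are common ones. The count for Tff1 is a description and no test. Slides 2 and 4 hold the E2 levels used in choosing it, and it passed the filter only through the E2 and Dex+E2 groups. Within a slide, the first label occupied positions 1 and 2 and the other label positions 3 and 4, so label and position cannot be told apart there. The E2 arrays lay at positions 3 and 4 of slide 2 and positions 1 and 2 of slide 4, and Tff1 and Sfrp5 were higher with E2 on both.

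Pairs with the same label on different slides differed by -0.15 to -0.05 in Sfrp5. In Tff1 the vehicle pairs differed by 0.02, the Dex pairs by -0.62, the Dex+E2 pairs by -0.44 and the E2 pairs by 0.29. For Greb1 the largest was the vehicle step of 1.01, followed by 0.49 between the Dex pairs. As a share of the variance over the 16 arrays, taken one factor at a time, the treatment label accounted for 77.1% in Sfrp5, 74.2% in Tff1 and 54.6% in Greb1. The slide accounted for 12.5%, 14.5% and 56.3%. The medians over all genes were 18.1% for label and 25.2% for slide. The genes were chosen on their E2 differences and on the Greb1 step between vehicle arrays. Their shares are therefore descriptions, and standing above these medians is no test. Label and slide are partly confounded, so the 2 shares overlap and do not add up.

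**Figure D2:**
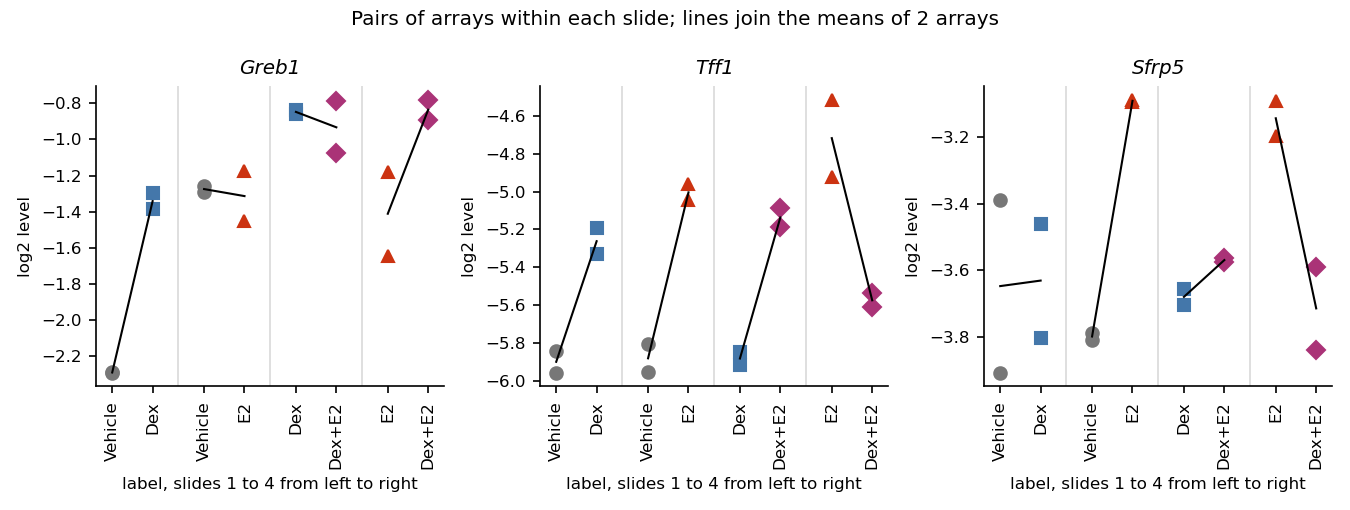
Log2 levels of Greb1, Tff1 and Sfrp5 (y axis) on slides 1 to 4, one point per array, with the labels of a slide side by side and lines joining the means of 2 arrays. On slide 2 the vehicle and E2 pairs of Greb1 overlap, whereas Tff1 and Sfrp5 are 0.88 and 0.71 higher with E2.

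None of the 3 genes separated the arrays with high Per1 from those with low Per1. Greb1 spanned -1.39 to -0.78 on the 8 arrays with high Per1 and -2.29 to -0.86 on the 8 with low Per1. Tff1 spanned -5.92 to -4.51 and -5.96 to -4.92, and Sfrp5 -3.81 to -3.20 and -3.91 to -3.09. The ranges overlapped in each case. Esr2, which encodes estrogen receptor beta, did separate, at -2.66 to -2.22 with high Per1 and -2.003 to -1.77 with low Per1, as did Gper1, a membrane estrogen receptor, at -3.07 to -2.61 and -2.14 to -1.63. With Esr2 and Gper1, Greb1 had r = -0.62 each over the 16 arrays, Tff1 -0.11 and -0.16, and Sfrp5 0.15 and 0.16. Over all 16 arrays neither receptor gene was called. The share of all genes that separated by Per1 was not counted. Without the 4 arrays whose Per1 level went against their label, Dex against vehicle gave -0.59 ± 0.12 for Esr2 (limma adjusted p = 0.0304) and -1.04 ± 0.14 for Gper1 (limma adjusted p = 0.00183). That setting called 432 of 17771 genes in this comparison. Leaving arrays out on their Per1 level favours genes that follow Per1, as these 2 do. For Esr1, the gene of the alpha receptor, 0 of 16 arrays had a signal well above background.

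Arrays 3 and 4 of each label shared a slide and differed in Per1 by 2.86 to 3.24. Across those pairs, array 4 minus array 3 in Greb1 was -0.03 (vehicle), 0.02 (Dex), 0.47 (E2) and 0.11 (both). In Tff1 it was 0.15, -0.07, 0.41 and 0.07, and in Sfrp5 -0.02, -0.05, -0.10 and 0.25. The median absolute difference over all genes tested was 0.17 (vehicle), 0.17 (Dex), 0.11 (E2) and 0.21 (both). In Pgr, with its single reading on Vehicle 3, the vehicle pair differed by -6.19. Leaving out the 4 arrays whose Per1 level went against their label, a step added after seeing the data, gave E2 minus vehicle differences of 0.94 ± 0.23 for Tff1, 0.60 ± 0.15 for Sfrp5 and 0.52 ± 0.26 for Greb1.

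**Figure D3:**
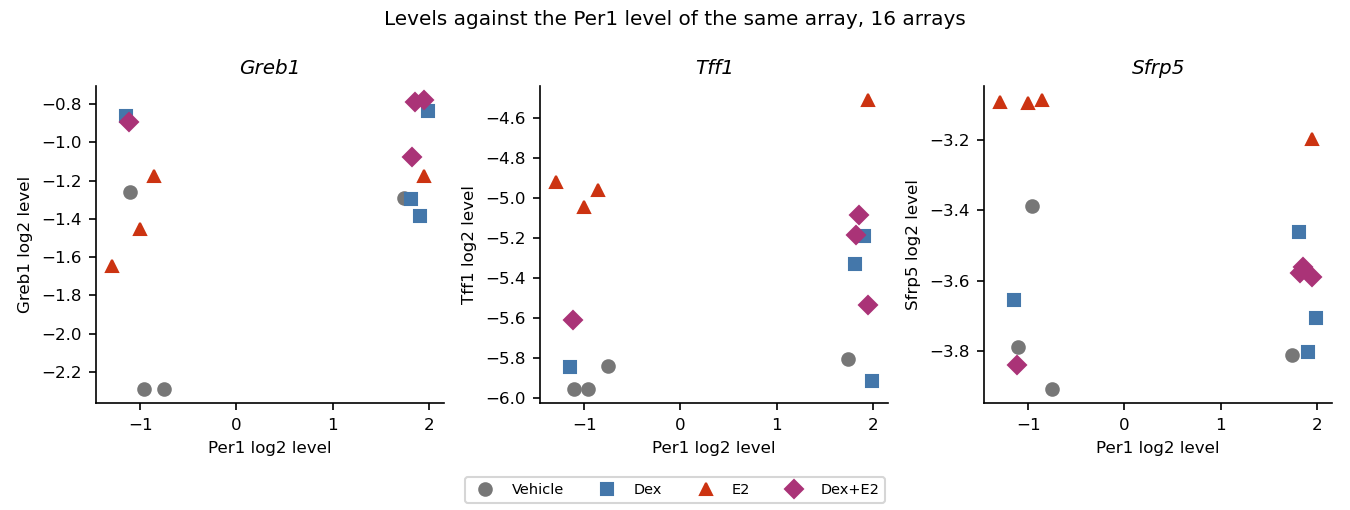
Log2 level of Greb1, Tff1 and Sfrp5 (y axes) against the log2 level of Per1 (x axis), one point per array, with colour and shape for the treatment label. The arrays form a low and a high Per1 cluster of 8 each, and the range of each gene overlaps between them.

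Over all genes, 0 of 17771 passed a limma adjusted p under 0.05 in any of the 7 comparisons (0.0% each), members included. At an unadjusted p under 0.05 there were 682 genes for E2 against vehicle, 567 for Dex+E2 against Dex, 989 for Dex+E2 against vehicle, 714 for Dex+E2 against E2 and 1933 for Dex against vehicle. The average E2 effect had 652 and the interaction 661. In simulated data for E2 against vehicle, the fit recovered 88% of 100 genes changed by a log2 size of 1 and 96% of 100 changed by 2, with 12 false calls in the same run. The simulated noise was independent between genes and arrays, with no slide differences and no Per1 levels against the label. It therefore checks that the fit works and does not give the recovery on the real arrays. P-values measure the spread between these arrays.

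None of the other estrogen-induced genes passed the test over all 16 arrays. Of 32 such genes listed from textbook knowledge of estrogen-responsive cells, 30 were on the array under a name and 21 were tested, and 0 were called. Their median difference between E2 and vehicle was -0.00071, beside -0.0176 over all genes tested, and 10 of 21 were positive. At an unadjusted p under 0.05 there were 0. In Dex+E2 against Dex, 10 of 21 were positive and 0 were called. Rerg, a small GTPase of the RAS family, differed by 0.37 ± 0.25 between E2 and vehicle (limma adjusted p = 0.979). Xbp1, a transcription factor of the unfolded protein response, differed by 0.16 ± 0.08 (limma adjusted p = 0.979), and Rab31, a vesicle-trafficking GTPase, by -0.02 ± 0.09 (limma adjusted p = 0.9996). Without the 4 arrays whose Per1 level went against their label, 3 of the 21 were called in Dex against vehicle, namely the chemokine Cxcl12 (1.38 ± 0.27, limma adjusted p = 0.0194), the survival gene Bcl2 (-0.52 ± 0.11, limma adjusted p = 0.0295) and the scaffold gene Pdzk1 (-1.14 ± 0.19, limma adjusted p = 0.00708). Over all genes, 432 of 17771 were called in that comparison. Cxcl12 was also called in Dex+E2 against vehicle and Dex+E2 against E2, where 460 and 343 of 17771 genes were called. In E2 against vehicle and in Dex+E2 against Dex, 0 of the 21 and 0 of all 17771 genes were called. Those arrays were left out on their Per1 level, which favours genes that follow Per1.

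**Figure D4:**
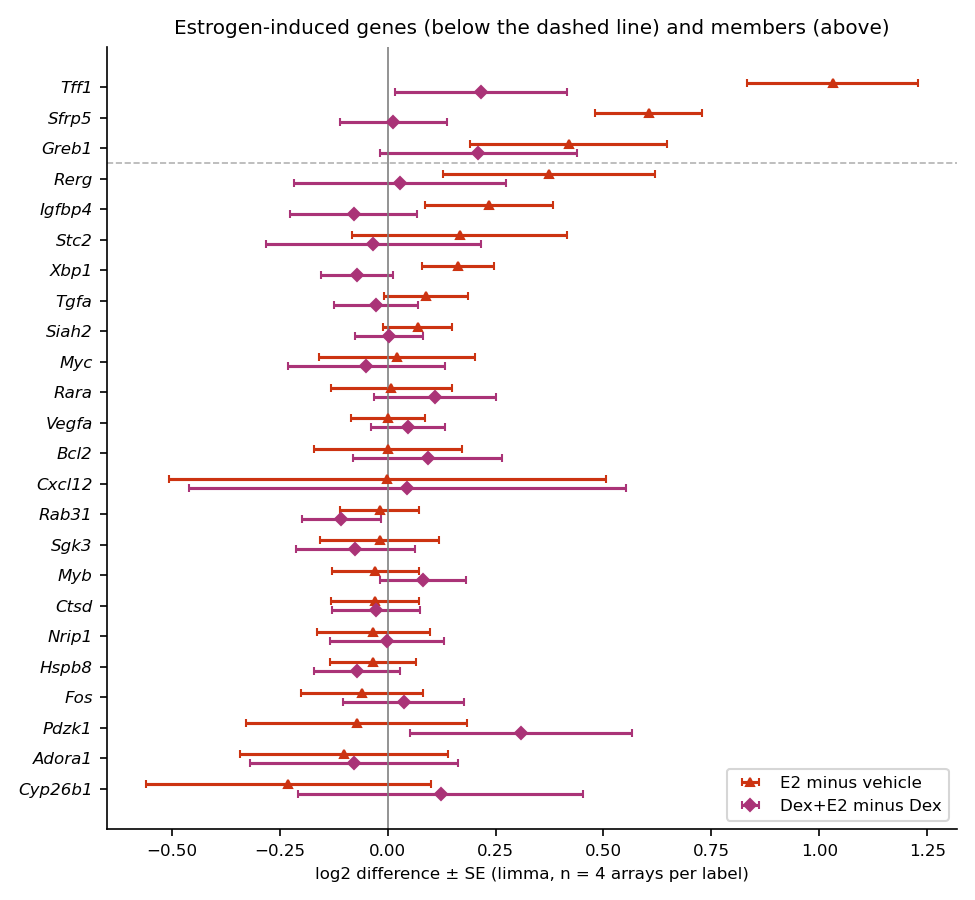
Log2 differences with SE from the limma fit (x axis, n = 4 arrays per label) for the 21 tested genes of the estrogen-induced list and, above the dashed line, for Greb1, Tff1 and Sfrp5. Triangles are E2 minus vehicle and diamonds Dex+E2 minus Dex, and for Tff1 and Sfrp5 the triangles lie at 1.03 and 0.60 and the diamonds at 0.22 and 0.01.

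The partners of these genes were also measured. Of 15 estrogen receptor cofactors, 14 were tested and 0 called. Foxa1, a pioneer factor for estrogen receptor alpha, differed by 0.16 ± 0.19 between E2 and vehicle (limma adjusted p = 0.998), and the coactivators Ep300 and Ncoa2 by -0.18 ± 0.17 (limma adjusted p = 0.989) and 0.04 ± 0.10 (limma adjusted p = 0.9996). Of 9 progesterone pathway genes, all tested, 0 were called. Fkbp4, a co-chaperone of steroid receptors, differed by 0.21 ± 0.07 (limma adjusted p = 0.979), Pgrmc1 by -0.10 ± 0.11 (limma adjusted p = 0.995) and Paqr7 by 0.04 ± 0.11 (limma adjusted p = 0.9996).

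Among the 10 Wnt antagonists, Sfrp5 was one of 3 tested. Dkk3 was bright, and it differed by -0.21 ± 0.08 between E2 and vehicle (limma adjusted p = 0.979), opposite in sign to Sfrp5. Wif1 differed by 0.19 ± 0.18 (limma adjusted p = 0.994). The relatives Sfrp1, Frzb, Sfrp2 and Dkk1 were well above background on 10, 9, 2 and 1 arrays, with medians of -6.03, -6.17, -7.95 and -7.70. Of 10 genes that read out Wnt signalling, 4 were tested and 0 called over all arrays. Axin2, a feedback inhibitor of the pathway, differed by -0.15 ± 0.32 between E2 and vehicle (limma adjusted p = 0.9996). Its difference between Dex and vehicle was -0.89 ± 0.32 over all arrays (limma adjusted p = 0.451). It was -0.71 ± 0.13 (limma adjusted p = 0.0115) without the 4 arrays whose Per1 level went against their label. That setting called 432 of 17771 genes in the same comparison. Those arrays were left out on their Per1 level, after seeing the data, which favours genes that follow Per1. Between E2 and vehicle Tcf7 differed by -0.05 ± 0.24 (limma adjusted p = 0.9996) and Nkd1 by 0.04 ± 0.14 (limma adjusted p = 0.9996). Of the other trefoil peptides, Tff2 was well above background on 0 arrays, and Tff3 on 6, from -7.85 to -4.94.

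Genes whose levels most resembled each member were ranked by Pearson r over the 16 arrays, which share slides and labels, among 12055 genes (12056 for Tff1). Greb1 was most like Efr3b (r = 0.911), Chst1 (0.867), Lamb3 (0.856), Vcl (0.840) and Dido1 (0.840). Vcl encodes the adhesion protein vinculin and Lamb3 a laminin subunit. Efr3b shared the vehicle step, at -1.03, -1.05, -0.59 and -0.43 on Vehicle 1 to 4. Without Vehicle 1 and 2, the arrays farthest from the Greb1 median, r fell to 0.834 for Efr3b and 0.595 for Chst1.

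Tff1 was most like Gucy2c (r = 0.843), Polr2a (0.801), 3930402G23Rik (0.778), Fev (0.772) and Asgr2 (0.769). Sfrp5 was most like Scrt2 (r = 0.796), Ehd2 (0.753), Sprr2b (0.752), Mag (0.750) and Padi1 (0.749). Gucy2c encodes an intestinal guanylate cyclase receptor, Polr2a the largest subunit of RNA polymerase II, and Mag a myelin glycoprotein. Padi1, a protein-citrullinating enzyme, also had its 4 E2 arrays above the other 12, the lowest E2 array at -2.74 and the highest other at -2.86. Among the members, Tff1 and Sfrp5 had r = 0.70 (rho = 0.62, n = 16), Greb1 and Tff1 r = 0.16, and Greb1 and Sfrp5 r = -0.10. Tff1 and Sfrp5 were both chosen with their E2 differences on these arrays known, so their r is a description and no test.

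**Figure D5:**
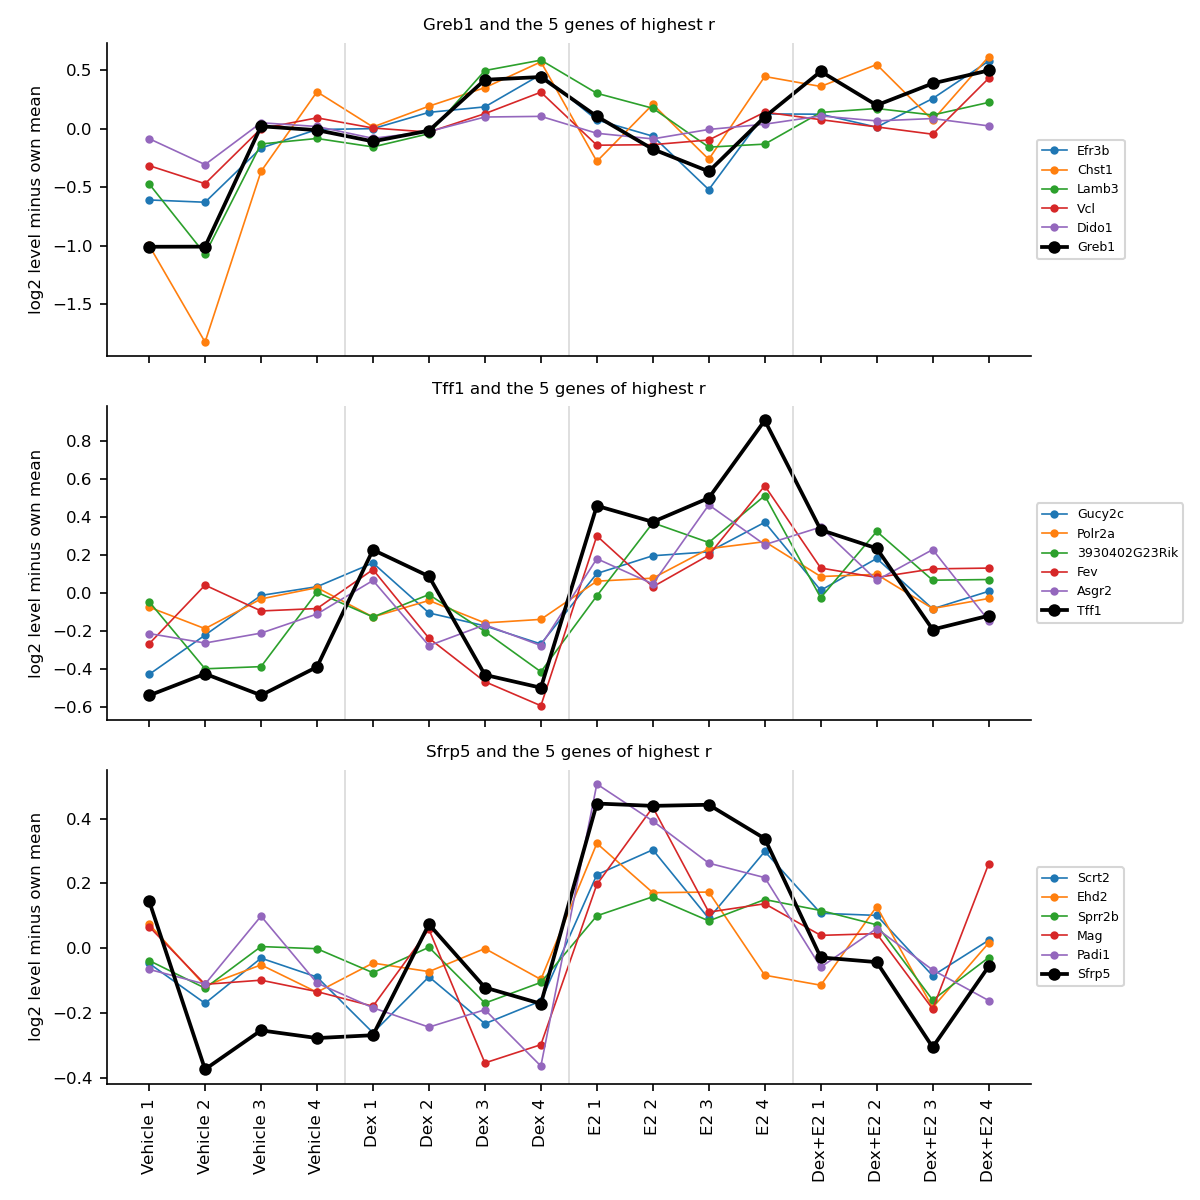
Log2 levels minus each gene's own mean (y axis) on the 16 arrays in label order (x axis) for Greb1, Tff1 and Sfrp5 in black and the 5 genes of highest Pearson r with each. The Greb1 panel drops at Vehicle 1 and 2 in Greb1 and Efr3b, whose r of 0.911 is the highest of the 15.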

How the data were processed

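RNA of 16 arrays (4 per label, labels as given) was hybridised as Cy3-labelled cRNA, and spots were read with Agilent Feature Extraction 12 (submitters' processing notes). The processed signal is a linear intensity after background subtraction, and flags mark outlier spots, per the file headers. A deposited table of log2 values for the same arrays served as an alternative. Its columns correlated best with their own arrays (lowest r 0.997) and had a median of 4.70, with the normalization not given in the sources used here.

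Control spots and spots with outlier flags were left out, spots of a probe were averaged, and the level was log2 of the signal minus the 75th percentile of the array. The files carry accessions. These matched RefSeq (GRCm38.p6) for 28223 of 41174 probes, naming 19096 genes, and 12951 probes kept their accession. The filter kept 24453 probes that exceeded background clearly in every array of some group, and the probe with the highest mean stood for a gene (17771 genes). Ranges, overlaps and shares used the 17529 genes with a value on every array.

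Groups were compared with limma 3.58.1 (lmFit, eBayes, trended prior) under R 4.3.3, two-sided and over the 16 arrays together, with Benjamini-Hochberg adjustment over all genes and a threshold of 0.05, after the fit was tested on simulated data. The number of arrays limits the precision. The labels do not say whether arrays came from separate cultures beyond the series' mention of independent experiments. Replicate numbers were taken to pair 2 labels only where all 4 same-number pairs had a correlation of deviations over 0.1. That held for E2 with Dex+E2 (0.11 to 0.46) and for no other of the 6 label pairs, although all 6 pairs of arrays numbered 4 exceeded 0.1, and over all labels 13 of 24 pairs did (range -0.16 to 0.46).

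Genes named were the 4 members, Per1 and the estrogen receptors as checks, detected members of the trefoil, GREB1 and Wnt antagonist lists, of each other list every called gene or else the 3 with the smallest p in the average E2 effect, and the 5 genes most like each member. The members and lists were chosen with earlier results of these data known. Alternatives covered background correction (normexp, offset 50, on the median spot signal, as the files have no mean signal), scaling, filters, flags, slide and replicate blocks and arrays left out.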

Additional observations from a re-analysis of the deposited data

Results flagged for a closer look

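In the 16 groups of 4 arrays checked, 4 genes by 4 labels, 3 arrays stood apart from the other 3 of their group. Chance flags about 1 in 20 such groups. Pgr on Vehicle 3 was at -2.34, beside -8.19, -8.34 and -8.52 on the other vehicle arrays. Sfrp5 on E2 4 was at -3.20, beside -3.09, -3.10 and -3.09, so its gap was small and the group still lay above all other arrays. Sfrp5 on Dex+E2 3 was at -3.84, beside -3.56, -3.58 and -3.59.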

How the results depend on the processing

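The count of genes called stayed at 0 in 198 of 205 recomputed counts. For the average E2 effect it was 7 without a trend in the variance prior and 6 with slide as a block, and for E2 against vehicle 1 without the trend. Within slide 1, Dex against vehicle gave 45. Leaving out the 4 arrays whose Per1 level went against the label was chosen after seeing the data. Of 17771 genes it called 432 for Dex against vehicle, 343 for Dex+E2 against E2 and 460 for Dex+E2 against vehicle. Greb1, Tff1 and Sfrp5 were not among them, whereas Gper1 was in all 3 and Esr2 in those against vehicle. Leaving out each array in turn gave 0 in every comparison (0 to 0).

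With replicate number as a block, 0 genes were called in each comparison, Dex+E2 against E2 among them, where the numbers paired the arrays, and E2 minus vehicle was 0.42 ± 0.20 for Greb1, 1.03 ± 0.20 for Tff1 and 0.60 ± 0.13 for Sfrp5. With slide as a block the E2 difference of Greb1 was 0.04 ± 0.14, that of Tff1 1.22 ± 0.24 and that of Sfrp5 0.70 ± 0.15. Normexp moved the median of all genes for E2 against vehicle by 0.12 and gave 0.83 ± 0.23, 1.54 ± 0.73 and 1.26 ± 0.51. Leaving out single arrays kept E2 minus vehicle between 0.25 and 0.59 for Greb1, 0.91 and 1.09 for Tff1, and 0.54 and 0.72 for Sfrp5. The sign differed from the reported one in 7 of 205 recomputed values for Greb1, 0 of 198 for Tff1 and 7 of 205 for Sfrp5. The cause of these movements was not tested. Signal over background limits Tff1 and Pgr most. Pgr has 1 probe, so the alternative with another probe was not run.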
